A study of Saccharomyces cerevisiae with 94 samples.

Results

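Cells depleted of the poly(A)-binding protein Pab1 for 1 h were set against cells of the same experiment that had received no auxin. The series holds 94 yeast samples, all sequenced as native RNA on Nanopore (direct RNA sequencing, DRS), and 4 of them belong to this comparison. They were deposited as 2 pools of 2 samples each, 1 h auxin and control, and another pool of 2 samples with 2 h of auxin is given beside them. All are W303 cells grown at 25 °C in rich medium (YPDA) and, by their genotype label, carry PAB1 fused to an auxin-inducible degron, a tag that marks the protein for destruction once auxin is added. The strain list of the study adds OsTIR, the plant receptor that the degron needs, and the alleles tor1-1, fpr1::LEU, RPL13-2xFKBP12 and MEX67-FRB of the Anchor-Away system, with no rapamycin given. The titles of the control samples call them a WT AID control, while their descriptions name the same Pab1-AID strain without auxin. Auxin was given only to the depleted cells, so the effects of auxin and of Pab1 loss cannot be told apart, and the study describes the loss of Pab1 protein as partial. Each pool is a single column of reads, so there is no spread between samples and no test, and intervals cover counting error only.

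Pab1 coats the pA-tail of cytoplasmic mRNAs in budding yeast. It binds the initiation factor eIF4G and the termination factor eRF3, shields mRNAs from decapping, and recruits and regulates the Pan2-Pan3 and Ccr4-NOT deadenylases, which shorten the tail until the cap is removed and Xrn1 degrades the body of the mRNA. Yeast has no cytoplasmic poly(A) polymerase, so a long tail on an mRNA is one made in the nucleus and not yet trimmed.

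After removal of ENO2, the 1 h pool held 2114246 reads, against 1733624 in the control pool, and 97.9% of the reads in the 1 h pool lay on mRNAs, against 98.0% in the control pool. Of 7389 transcripts, 3971 had at least 30 reads in one pool and were compared by library fraction, 3846 of them mRNAs. Of 5542 mRNAs, 4643 had at least 10 reads in both pools and were compared by tail. In bulk RNA, fewer cells of a type and less RNA per cell cannot be told apart, and a library fraction says nothing of total mRNA per cell. As a measure of how far separate libraries differ, 3 untreated libraries of Mex67-AA cells at 25 °C (the 0 min samples of replicates A, B and C, 467924 to 2184459 reads) were compared with each other. The markers of mating type differ between the experiments: STE2, the α-factor receptor of a cells, had 151 reads in the 1 h pool and 153 in the control pool but 3, 3 and 0 in the Mex67-AA libraries, while STE3, the a-factor receptor of α cells, had 18 and 13 reads in the 1 h and control pools but 935, 371 and 146 in the Mex67-AA libraries. The Mex67-AA libraries therefore give a scale of differences between libraries and are not replicates of the control.

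The targeted gene was read thinly. PAB1 (YER165W, chrV:510226-512265) had 65 reads in the 1 h pool and 40 in the control pool, which is 30.7 and 23.1 RPM (reads scaled to a library of 1000000 reads without ENO2) and a log2 ratio of 0.41 with a counting interval of -0.18 to 1.02. The degron acts on the protein, so the mRNA is no check of the depletion. PAB1 was also among the mRNAs whose tail was no longer than in the control, with a mean of 37.9 As in the 1 h pool, against 42.0 As in the control pool. In the Mex67-AA libraries PAB1 stood at 277, 331 and 139 RPM, above both Pab1-AID pools. By the strain list PAB1 is tagged in the Pab1-AID strain and not in the Mex67-AA strain. How reads from the tagged locus align to this row was not tested, so the PAB1 level and tail in the Pab1-AID pools are uncertain.

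Few transcripts differed by 2-fold or more, and most of those were lower after 1 h. Of the 3971 transcripts, 18 were at least 2-fold higher in the 1 h pool (0.453%) and 95 at least 2-fold lower (2.39%). Among the 3846 mRNAs, 9 were higher (0.234%) and 94 lower (2.44%), with a median log2 ratio of -0.20 and quartiles at -0.46 and 0.02. This median depends on the denominator: scaling all transcripts by the median of ratios or by TMM factors moved it up by 0.20 and 0.19 and turned the split round, to 37 higher and 25 lower or to 35 higher and 27 lower. Lists of genes are therefore described below relative to the median of all mRNAs. The counts of 2-fold differences below, in lists and in promoter windows, use the library fractions without such scaling and depend on it too. With either scaling, mRNAs just past 2-fold lower, such as RPF1 (-1.05) and NOC2 (-1.04), would not be called, while CPS1 (0.98) would be called higher. The counting interval lay wholly above 0 for 275 mRNAs and wholly below 0 for 1096, and past 2-fold for 1 mRNA, YBR238C (45 reads in the 1 h pool and 8 in the control pool, log2 ratio 2.13). Between pairs of Mex67-AA libraries, 4.67%, 17.4% and 17.9% of mRNAs differed by 2-fold or more, so the share of 2-fold differences after 1 h was below that between untreated libraries, of which replicates B and C are less deep.

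Among mRNAs with at least 100 reads in one pool, the 12 with the lowest ratios to the control included EFG1, NOB1, PNO1, IPI3, MAK21, RPF1 and NOC2, whose products process or assemble pre-ribosomes, and RPA34 and RPC11, subunits of RNA polymerases I and III. Of the 12, 3 (NOB1, RPF1 and NOC2) are in the ribosome biogenesis list described below, and the rest were grouped by their known roles after their values were seen. The others were ERG29, THI80, a thiamine pyrophosphokinase, and a transcript over YDR133C and YDR134C. EFG1 had 67 reads in the 1 h pool and 141 in the control pool (31.7 against 81.3 RPM), a log2 ratio of -1.35 with a counting interval of -1.80 to -0.93. NOB1, the nuclease that makes the end of 18S rRNA, had 55 reads after 1 h and 109 in the control (log2 ratio -1.27, -1.77 to -0.79), and PNO1, its partner, 153 after 1 h and 271 in the control (-1.11, -1.41 to -0.82). In each of these mRNAs the reads that remained carried longer tails: 57.1 against 39.1 As for EFG1, 54.3 against 41.4 As for NOB1 and 47.6 against 36.2 As for PNO1. After 2 h the log2 ratios to the same control pool were -1.32 for EFG1, -1.43 for NOB1 and -1.70 for PNO1.

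Upstream sequence is shown for these 3 mRNAs because ribosome assembly genes are known to share a pair of promoter elements. PAC (GATGAG) and RRPE (AAAAATTT) were searched on both strands in the 250 bases before the deposited transcript start, read from the R64 (sacCer3) genome, and their matches are in capitals; neighbouring matches may overlap.
EFG1, chrVII:1038559-1038808, minus strand: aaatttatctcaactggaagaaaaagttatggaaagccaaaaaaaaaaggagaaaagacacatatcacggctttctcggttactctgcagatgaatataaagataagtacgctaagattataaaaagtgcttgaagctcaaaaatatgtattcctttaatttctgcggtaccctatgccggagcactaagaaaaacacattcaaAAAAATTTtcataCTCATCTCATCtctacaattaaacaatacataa
NOB1, chrXV:431711-431960, minus strand: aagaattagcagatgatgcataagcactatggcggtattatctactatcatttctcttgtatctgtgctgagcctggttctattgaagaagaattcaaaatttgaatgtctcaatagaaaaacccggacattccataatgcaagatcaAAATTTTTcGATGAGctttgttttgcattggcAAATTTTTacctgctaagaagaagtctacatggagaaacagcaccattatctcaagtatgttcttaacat
PNO1, chrXV:606207-606456, minus strand: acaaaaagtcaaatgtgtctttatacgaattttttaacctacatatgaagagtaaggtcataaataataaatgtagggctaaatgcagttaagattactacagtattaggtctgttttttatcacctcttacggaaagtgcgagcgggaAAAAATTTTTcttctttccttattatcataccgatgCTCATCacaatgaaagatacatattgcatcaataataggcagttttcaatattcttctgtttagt

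EFG1 held an RRPE at -46 to -39 and a pair of overlapping PAC matches between -33 and -23 from the start, NOB1 an RRPE on either side of a PAC at -93 to -88, and PNO1 overlapping RRPE matches at -101 to -92 and a PAC at -65 to -60. Both elements were present before 7 of the 12 mRNAs with the lowest ratios (EFG1, NOB1, PNO1, MAK21, RPF1, RPA34 and NOC2) and before 20 of the 94 mRNAs that were at least 2-fold lower (21.3%), against 291 of the 3846 mRNAs compared by level (7.57%) and 328 of all 5542 (5.92%). In the list of ribosome biogenesis genes, 55 of 67 windows (82.1%) held both. None of the 12 mRNAs with the highest ratios had both. A match to these letters is no evidence that a factor binds there.

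The mRNAs with higher levels after 1 h were more mixed in function. DED1 (YOR204W, chrXV:722819-725418), a DEAD-box helicase of translation initiation, had 312 reads in the 1 h pool and 110 in the control pool, which is 148 and 63.5 RPM and a log2 ratio of 1.21 (0.90 to 1.54). PDR12, a plasma membrane pump for weak organic acids, had 163 and 60 reads (1.15, 0.72 to 1.61), and CPS1, a vacuolar carboxypeptidase, 159 and 66 reads (0.98, 0.56 to 1.42). The others in the top 12 were FIT2 and FIT3, cell wall mannoproteins of siderophore uptake (0.91 and 0.74), the enolase ENO1 (0.83), the kinase MCK1 (0.76), the autophagy gene ATG41 (0.76), the membrane heat shock protein HSP30 (0.75), the ubiquitin ligase RSP5 (0.73), the succinate dehydrogenase subunit SDH1 (0.72) and a row that spans FKS1 and its neighbour YLR343W (0.72). ENO1 had by far the most reads of them, 18441 after 1 h and 8507 in the control, and the narrowest interval, 0.79 to 0.87, but that interval covers counting error only: ENO1 stood at 8722 RPM in the 1 h pool and 4907 in the control pool, and at 28761, 61438 and 5264 RPM in the 3 untreated Mex67-AA libraries. ENO1 and the removed ENO2 are near-identical, so reads may be shared between them; ENO2 held 6.62% of all reads in the 1 h pool and 3.02% in the control pool, and its part in the ENO1 values was not tested. Among mRNAs with fewer than 100 reads, the other 2-fold higher ones were YBR238C, PUF3, AGP2, DHH1, PCA1, GSC2 and MFA2.

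**Figure D1:**
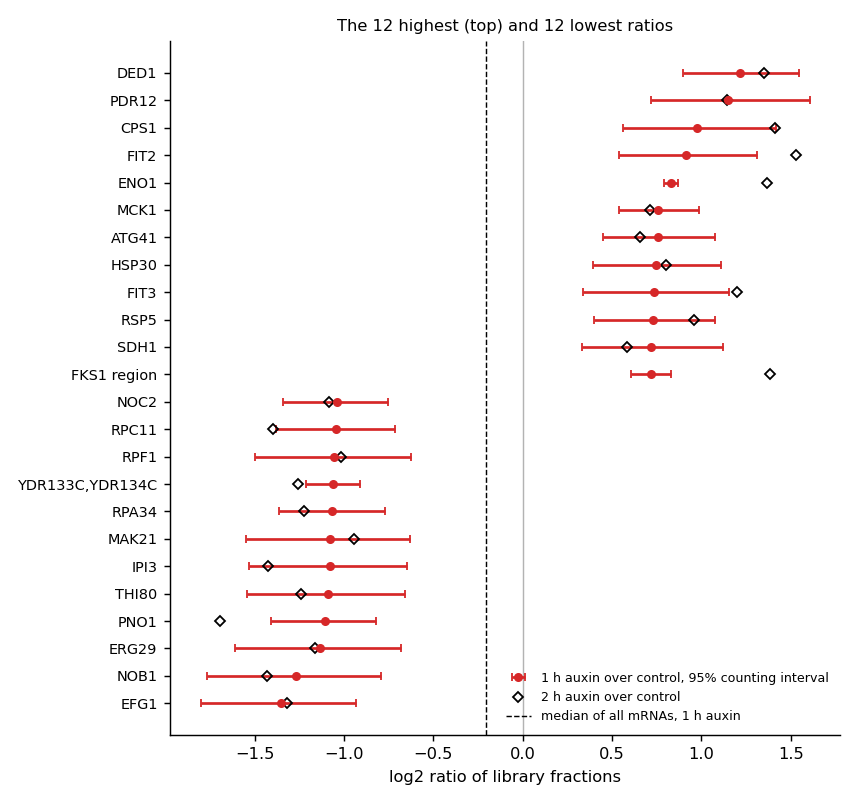
The 12 highest and 12 lowest ratios among mRNAs read 100 times or more in one pool. The horizontal axis is the log2 ratio of library fractions to the control pool; filled points are the 1 h pool with its 95% counting interval, open diamonds the 2 h pool, and the dashed line the median of all mRNAs after 1 h (-0.20). No interval of the 24 crosses 0, the intervals of the 12 lowest ratios all include -1, and after 2 h every mRNA is on the same side of 0 as after 1 h. The 24 were chosen by these 1 h ratios, and both ratios share the control pool, so neither observation is independent support.

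The list of decapping and 5′ decay genes held both directions. DHH1, the DEAD-box activator of decapping, had 82 reads in the 1 h pool and 29 in the control pool (log2 ratio 1.20, 0.59 to 1.88), and PUF3, which binds mRNAs of mitochondrial proteins and recruits deadenylases, had 41 and 10 reads (1.70, 0.73 to 2.91). Of 25 members of the decapping and 5′ decay list, these 2 were at least 2-fold higher and 1, LSM4, at least 2-fold lower (over all mRNAs 0.234% were higher and 2.44% lower), and the median was -0.14. XRN1, the 5′ exonuclease, had 232 reads in the 1 h pool and 149 in the control pool (0.35, 0.05 to 0.66), while DCP2, the decapping enzyme, had 130 and 109 reads (-0.03, -0.41 to 0.35). LSM1, a subunit of the Lsm ring that binds short tails, had 220 and 275 reads (-0.61, -0.87 to -0.35). The deadenylases had a median of -0.26 over 11 members, with 1 of them, the Ccr4-NOT ubiquitin ligase MOT2 (18 and 31 reads), at least 2-fold lower and CDC39, the Ccr4-NOT scaffold, at 114 reads after 1 h and 74 in the control (0.33, -0.10 to 0.78). Of 17 poly(A)-binding and tail proteins none passed 2-fold. The Pab1-binding protein PBP1 stood at 179 and 126 reads (0.22, -0.12 to 0.56) and the cleavage factor subunit RNA14 at 85 and 111 reads (-0.67, -1.10 to -0.25).

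As groups, mRNAs of ribosome biogenesis, histones and mitochondrial ribosomal proteins lay below the median of all mRNAs, and mRNAs of the general stress response, chaperones and translation elongation above it. Of 65 ribosome biogenesis mRNAs, 52 were below that median, 4 were at least 2-fold lower (6.15%, against 2.44% of all mRNAs) and none was higher, and the list's median was -0.52, which is -0.32 relative to all mRNAs. The list's median was -0.51 for histones (9 of 10 below the median of all mRNAs), -0.50 for mitochondrial ribosomal proteins (56 of 64 below, 1 of them at least 2-fold lower) and -0.33 for the proteasome (25 of 33 below). On the other side, 30 of 32 general stress response mRNAs were above the median of all mRNAs, with a list median of 0.35, and so were 26 of 27 heat shock chaperones (0.23), 8 of 8 elongation factors (0.25) and 16 of 16 glycolytic mRNAs (0.10). None of the members of these 4 lists passed 2-fold. Between pairs of untreated Mex67-AA libraries the same lists also moved. Taken relative to all mRNAs, the largest shift of a list between 2 such libraries was 0.36 for ribosome biogenesis, 0.45 for histones, 0.80 for mitochondrial ribosomal proteins, 0.44 for the proteasome, 0.58 for general stress and 0.66 for elongation factors, each larger than the shift after 1 h of auxin (-0.32, -0.30, -0.30, -0.13, 0.56 and 0.45 in the same order). For heat shock chaperones it was 0.18 and for glycolysis 0.24, below the 0.43 and 0.31 after 1 h. The library pairs covered fewer chaperones, 22, 22 and 17, against 27 after 1 h. Hexose transporters (0.33 between libraries, 0.47 after 1 h), iron and copper genes (0.33, 0.43) and phosphate genes (0.14, 0.15) also moved more after 1 h.

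Single members show the range within these groups. Among histones, HTB1 had 919 reads in the 1 h pool and 1257 in the control pool (log2 ratio -0.74), HHF1 1536 and 2091 (-0.73), and the linker histone HHO1 109 and 100 (-0.16). HHO1 was the one histone mRNA above the median of all mRNAs. In the ribosome biogenesis list, UTP20, of the small-subunit processome, was the highest member at 237 and 153 reads (0.34). Of the stress genes, HSP42, a small heat shock protein, had 479 and 267 reads (0.56) and DDR2, a general stress marker, 430 and 238 reads (0.57). CCW12, the most abundant cell wall mannoprotein, had 73219 reads in the 1 h pool and 40858 in the control pool (0.56), and the 24 cell wall mRNAs compared had a median of 0.10. The whole cell wall list took 4.45% of reads after 1 h and 3.23% in the control, and 0.989% and 0.872% without CCW12.

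Other lists held few 2-fold differences. Of 24 cell cycle mRNAs, 3 were at least 2-fold lower (12.5%, against 2.44% of all mRNAs), each thinly read, namely the B-type cyclin CLB4 (12 reads after 1 h, 30 in the control), CDC20, the activator of the anaphase-promoting complex (30 and 59 reads), and the transcription factor MBP1 (23 and 41 reads), and the list's median was -0.39. The medians were -0.40 for 13 mRNA export factors, with THP2 at least 2-fold lower (29 and 48 reads), -0.31 for 9 mating genes, with the pheromone gene MFA2 at least 2-fold higher (80 and 31 reads), and -0.30 for 28 initiation and termination factors, of which DED1 was at least 2-fold higher. Hexose transporters (0.27 over 6), iron and copper uptake genes (0.22 over 14) and drug efflux genes (0.11 over 15, with PDR12 at least 2-fold higher) had positive medians. Aminoacyl-tRNA synthetases, phosphate genes, amino acid synthesis, ergosterol and lipid synthesis, respiration, and methionine and sulfate assimilation had medians between -0.13 and -0.04 and no 2-fold difference. These medians too were above that of all mRNAs (-0.20), and their sign depends on the scaling.

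Ribosomal protein (RPG) mRNAs, the largest functional group, took nearly the same part of both pools. Their share was 41.6% of the reads in the 1 h pool and 42.0% in the control pool, and none of 131 passed 2-fold. Their median of -0.06 was above that of all mRNAs, and 116 of the 131 were above the median of all mRNAs; with TMM factors or the median of ratios the list's median was 0.13 or 0.14, so its sign depends on the scaling. RPL13A (253 reads after 1 h, 134 in the control, log2 ratio 0.63) and RPS27B (9941 and 6100, 0.42) were the highest members with at least 100 reads, and RPL18B (227 and 323, -0.79) and RPS27A (1157 and 1312, -0.47) the lowest. The members of such pairs are close in sequence, so reads may be misassigned between RPS27A and RPS27B.

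**Figure D2:**
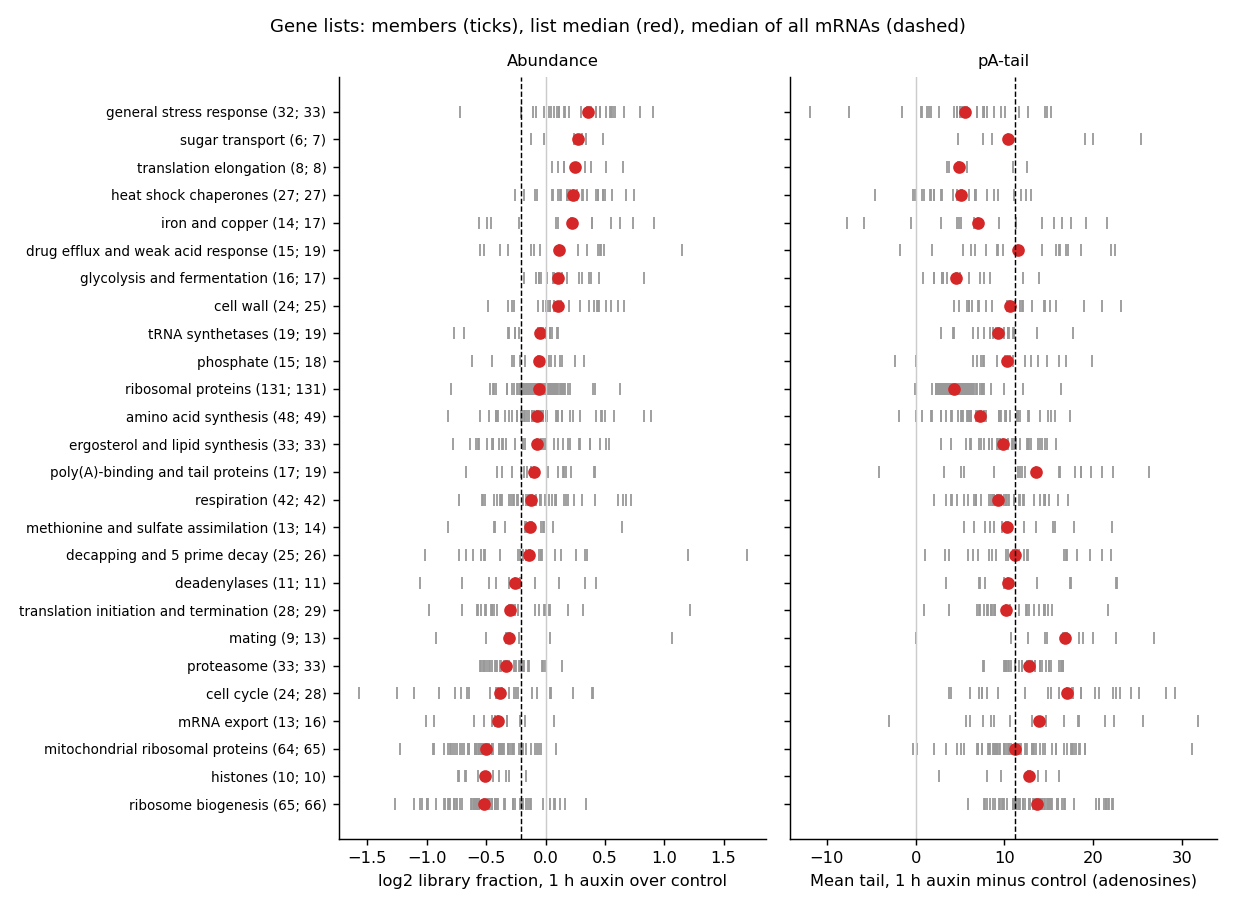
Gene lists, sorted by the median log2 ratio of library fractions (left) with the difference in mean pA-tail in adenosines (right), 1 h auxin against control. Ticks are member mRNAs, red points list medians, dashed lines the medians of all mRNAs (-0.20 and 11.2 As), and brackets the numbers of members compared for level and for tail. Ribosome biogenesis, histones and mitochondrial ribosomal proteins have the lowest levels, and the smallest tail gains are those of ribosomal proteins (4.36 As), glycolysis (4.51 As), translation elongation (4.84 As) and heat shock chaperones (5.10 As).

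Nearly all mRNAs had a longer mean tail after 1 h. Over the 4643 mRNAs, the median of the mean tails was 50.2 As in the 1 h pool and 37.6 As in the control pool, and the median gain was 11.2 As with quartiles at 6.90 and 16.1 As. The mean tail was longer for 4502 mRNAs and not longer for 141 (3.04%). Between untreated Mex67-AA libraries, the median difference was 2.76 As for A minus B, 2.38 As for A minus C and -0.29 As for B minus C, and 24.4%, 30.7% and 52.4% of mRNAs were not longer in the first library of the pair. In order of time the medians were 37.6 As in the control, 50.2 As after 1 h and 50.4 As after 2 h, so that most of the difference seen after 2 h was already present after 1 h.

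The gain spanned the tail distribution from its middle upwards and was small at its short end. Over the 1534 mRNAs that had 100 or more reads in each pool, the median of the 5th percentile of an mRNA's tails was 12.3 As in the 1 h pool and 11.0 As in the control pool, that of the 25th percentile 24.0 and 19.0 As, that of the 50th 41.0 and 28.3 As, that of the 75th 60.0 and 45.8 As, and that of the 95th 85.3 and 72.5 As. The 50th and the 75th percentile were each higher after 1 h for 1512 mRNAs, the 95th for 1491 and the 5th for 1056. HHF1 shows it for a single histone mRNA: its tails had a median of 46.0 As in the 1 h pool and 28.0 As in the control pool, a 95th percentile of 99 and 79.5 As and a 5th percentile of 14.0 and 12.0 As. DRS detects short tails less well, so the lower percentiles are less certain.

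Long-lived mRNAs gained least. Half-lives were computed from the loss of reads in the Mex67-AA chase, in which nuclear export of new mRNA is blocked, and 4600 mRNAs were split into 5 classes of 920. From the shortest-lived to the longest-lived class the median half-life was 2.21, 3.82, 6.07, 9.79 and 23.1 min, the median gain 14.5, 13.5, 12.8, 10.8 and 7.56 As, and the number of mRNAs without gain 48, 33, 27, 20 and 5. RPG mRNAs made up 113 of the longest-lived class, and without them its median gain was 8.22 As. The Spearman coefficient of half-life with gain was -0.33 across 4600 mRNAs, which are not independent replicates and share both pools. Levels followed half-life less closely: the median log2 ratios were -0.29, -0.28, -0.29, -0.22 and -0.09 in the same order, and the coefficient was 0.18 across 3835 mRNAs. Gain also fell with read number, from a median of 12.9 As at 10 to 29 reads to 4.95 As at 1000 or more. Its Spearman coefficient with control reads was -0.43 across 1400 well-read mRNAs. In the shortest-lived class 455 mRNAs had at least 30 reads in one pool, against 919 in the longest-lived. Half-life was not tested apart from read number.

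**Figure D3:**
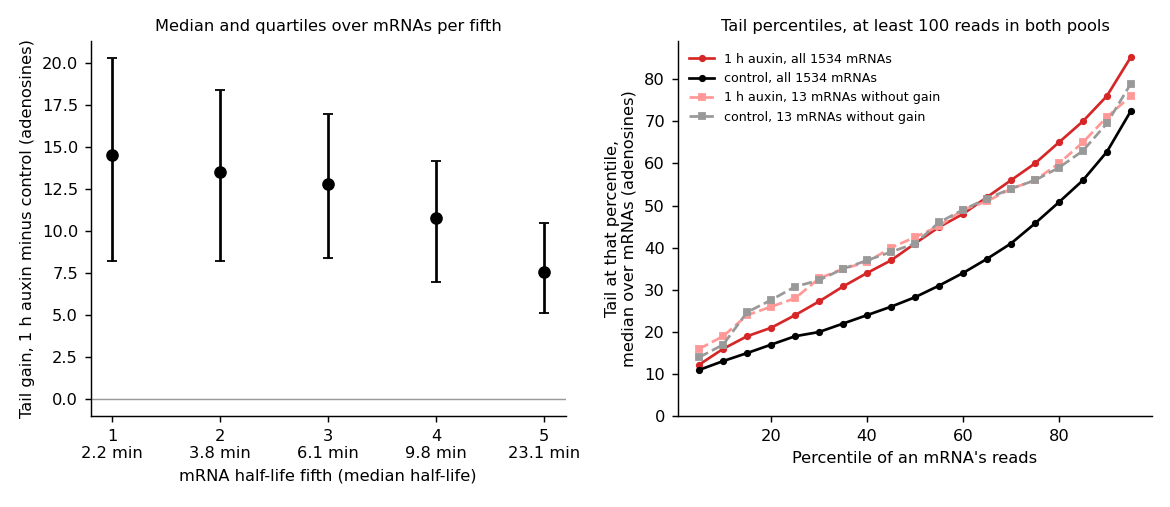
Left, tail gain in adenosines, 1 h auxin minus control, by half-life class from shortest to longest (points, medians of 920 mRNAs; bars, quartiles). Right, the tail at each percentile of an mRNA's reads, as medians over the 1534 mRNAs read 100 times or more in each pool (solid) and over the 13 of them without gain (dashed), in the 1 h pool (red) and the control pool (black and grey). The medians fall to 7.56 As in the longest-lived class. For all mRNAs the curves part most above the median. Those of the 13 mRNAs lie on each other and, in the control, above that of all mRNAs. The 13 were chosen by this difference, so neither feature of their curves is an independent result.

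The mRNAs that the study shows for this strain span this range. MCH5, a riboflavin transporter, had the largest gain of all mRNAs with at least 100 reads, with a mean tail of 63.7 As in the 1 h pool and 36.3 As in the control pool and almost no difference in level (127 and 114 reads, log2 ratio -0.13). DCP2 stood at 56.5 and 35.6 As, HHF1 at 50.6 and 35.9 As and EXG1, a cell wall glucanase, at 47.4 and 32.9 As. At the other end DED81, asparaginyl-tRNA synthetase, had 32.0 and 29.2 As, the glycolytic aldolase FBA1 28.6 and 25.6 As and RPL28 26.6 and 23.5 As. After MCH5, the largest gains were those of FCF2, a pre-rRNA processing factor (52.9 As after 1 h, 26.1 As in the control), the casein kinase subunit CKA1 (66.3 and 40.8 As) and MSB2, an osmosensor of the cell surface (46.7 and 21.4 As). Their levels were not high: the log2 ratios were -0.35, -0.49 and -0.12.

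Cell cycle and mating mRNAs gained most and ribosomal protein and glycolytic mRNAs least. The largest median gains were those of 28 cell cycle mRNAs (17.1 As) and 13 mating mRNAs (16.8 As), followed by mRNA export (13.9 As), ribosome biogenesis (13.7 As), poly(A)-binding and tail proteins (13.6 As), histones and proteasome (12.8 As each). The smallest were those of 131 ribosomal protein mRNAs (4.36 As), glycolysis (4.51 As), translation elongation (4.84 As), heat shock chaperones (5.10 As) and general stress response (5.56 As). The largest difference of a list's median among the Mex67-AA libraries was 2.12 As for ribosomal proteins, 2.86 As for chaperones and 6.73 As for any list. Across the 1534 mRNAs with at least 100 reads, the Spearman coefficient of the log2 ratio of levels with the gain was -0.45, as a description across mRNAs that share both pools.

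**Figure D4:**
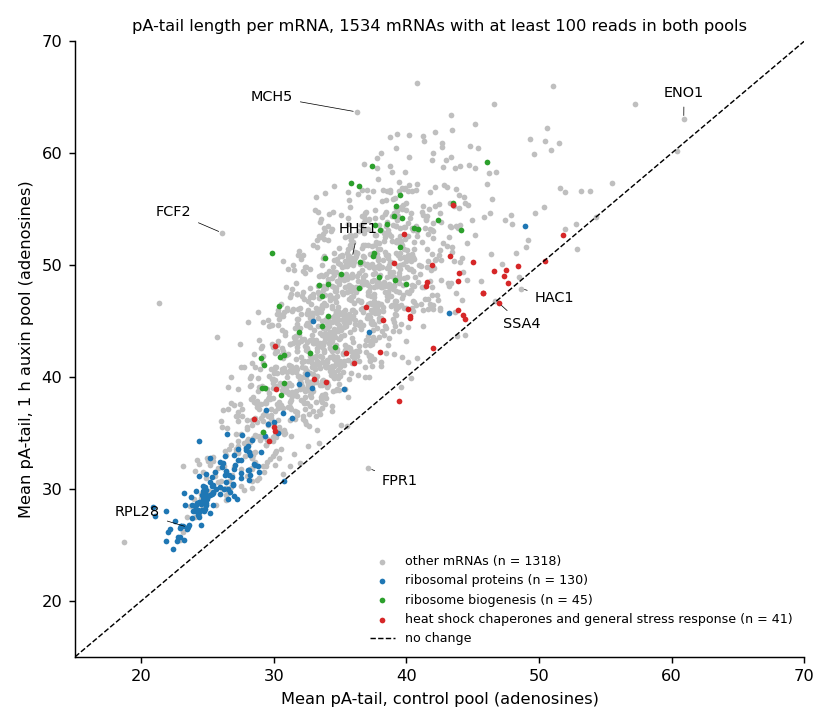
Mean pA-tail of each of 1534 mRNAs read 100 times or more in each pool, in adenosines, in the 1 h pool (vertical) against the control pool (horizontal), coloured by gene list; the dashed line marks no change. All but 13 mRNAs lie above the line; ribosomal protein mRNAs (blue) are short in both pools and lie near it, ribosome biogenesis mRNAs (green) lie well above it, and heat shock and general stress mRNAs (red) lie nearest to it at control tails above 40 As.

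The mRNAs without gain were mostly thinly read. Of the 141, 91 had under 30 reads in the pool with fewer reads (7.77% of the 1171 mRNAs in that range), 37 had at least 30 and under 100 reads (1.91% of 1938), 10 had at least 100 and under 300 (1.07% of 932) and 3 had at least 300 and under 1000 (0.829% of 362), and none of 240 mRNAs with 1000 reads or more was among them. They had long tails in the control, with a median of 49.9 As, against 37.4 As for the mRNAs that gained, while after 1 h the medians were 46.8 As without gain and 50.3 As with gain. The difference chose these mRNAs, so their control tail is no independent measure. A smaller difference of the same sign was seen in libraries the choice did not use: in the Mex67-AA libraries the median tail was 39.6 As over 84 of these mRNAs and 36.2 As over 3970 of those that gained. With the same libraries as reference, 67 of the 84 had a longer tail after 1 h of auxin, by a median of 5.27 As over the 84, against 12.5 As over the 3970. The median half-life was 3.86 min without gain and 6.21 min with gain, and the median log2 ratio of levels 0.08 without gain and -0.21 with gain. Those ratios cover only mRNAs with at least 30 reads in one pool, 70 without gain and 3775 with gain. A thinly read mRNA can pass that minimum through its higher pool alone, so these medians depend in part on the filter.

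Some thinly read mRNAs without gain belong to the lists. Iron and copper genes had 3 of 17 members without gain (17.6%, against 3.04% of all mRNAs and 7.77% of those under 30 reads), the ferric reductases FRE2 (22 reads in the 1 h pool, 16 in the control pool) and FRE3 (13 and 22 reads) and the siderophore transporter ARN1 (43 and 30 reads, a difference of -5.76 As). YGP1, a secreted stress glycoprotein, stood at -11.9 As with 44 and 19 reads and the chaperone SSE2 at -4.59 As with 65 and 33 reads. ARG1, an arginine synthesis enzyme, stood at -1.90 As with 83 and 38 reads. With so few reads these differences have no counting interval from the deposited summaries and are given as values.

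No gain was also seen for 13 mRNAs read 100 times or more in each pool. FPR1, the rapamycin-binding proline isomerase, had the largest difference, with a mean tail of 31.9 As over 372 reads in the 1 h pool and 37.1 As over 226 reads in the control pool. TSL1, a subunit of trehalose synthase, stood at 37.9 As (252 reads) and 39.4 As (141 reads), and PIN3, a prion-inducing protein, at 51.5 As (180 reads) and 52.9 As (102 reads). In all 3 the control tail, which took part in their choice, was longer than the median of the 1534 mRNAs, 34.5 As. HAC1, the transcription factor of the unfolded protein response, had 1639 reads in the 1 h pool and 914 in the control pool (log2 ratio 0.56, 0.44 to 0.67) and mean tails of 47.9 and 48.7 As. Its median tail was 46.0 As in both pools. SSA4, a stress-inducible Hsp70, had 1036 and 607 reads (0.48, 0.34 to 0.63) and mean tails of 46.6 and 47.0 As. BTN2, a heat-induced sorting factor for misfolded proteins, had 481 and 279 reads (0.50, 0.28 to 0.72) and tails of 50.4 and 50.5 As. HAC1, SSA4 and BTN2 were thus read more often after 1 h with tails within 1 As of the control.

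The remaining 7 differed by less than 1 As. OPI10 (43.8 As in the 1 h pool, 44.4 As in the control pool), whose human homologue Hikeshi imports Hsp70 into the nucleus, RTC3 (39.1 and 39.6 As), the Mediator subunit SRB2 (40.0 and 40.4 As), the signal peptidase subunit SPC1 (60.3 and 60.4 As), the choline transporter-like PNS1 (43.7 and 43.8 As), RPL13A (30.7 and 30.8 As) and ATG41 (54.3 As in both) made up this set. Just past the line, LYS9 gained 0.07 As and NAM9 0.11 As. Of the 13, 11 had a log2 ratio above 0, and their median was 0.50, against -0.14 for the 1521 mRNAs that gained. Heat shock chaperones and general stress response genes made up 3 of the 13 (23.1%) and 38 of the 1521 (2.50%). In order of time the 13 had a median tail of 44.4 As in the control, 43.8 As after 1 h and 46.6 As after 2 h.

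Upstream sequence is shown for 3 of these because stress promoters carry known elements, the STRE bound by Msn2 and Msn4 (AGGGG) and the heat shock element (HSE) bound by Hsf1, searched as 3 alternating TTC and GAA blocks with any 2 bases between blocks. Matches on either strand in the 250 bases before the transcript start are in capitals, from the R64 (sacCer3) genome, and HSE matches may overlap.
TSL1, chrXIII:70320-70569, plus strand: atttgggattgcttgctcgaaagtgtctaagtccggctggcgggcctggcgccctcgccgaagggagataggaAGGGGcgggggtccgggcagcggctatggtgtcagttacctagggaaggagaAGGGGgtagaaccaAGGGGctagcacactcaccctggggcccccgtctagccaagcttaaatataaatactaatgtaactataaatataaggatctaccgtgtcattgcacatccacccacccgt
SSA4, chrV:364264-364513, plus strand: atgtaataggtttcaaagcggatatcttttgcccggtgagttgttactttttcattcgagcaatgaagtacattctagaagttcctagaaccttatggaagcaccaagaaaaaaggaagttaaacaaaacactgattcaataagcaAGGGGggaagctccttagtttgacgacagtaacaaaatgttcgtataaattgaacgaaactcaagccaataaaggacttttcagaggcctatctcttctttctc
BTN2, chrVII:772082-772331, plus strand: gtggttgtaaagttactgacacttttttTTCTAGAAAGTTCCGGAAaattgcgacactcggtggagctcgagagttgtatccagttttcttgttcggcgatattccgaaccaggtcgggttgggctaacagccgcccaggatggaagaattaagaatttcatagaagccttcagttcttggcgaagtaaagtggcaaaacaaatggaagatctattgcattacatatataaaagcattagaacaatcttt

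TSL1 held 3 STRE matches, SSA4 1 and BTN2 a pair of overlapping HSE matches between -222 and -205. An STRE was present before 6 of the 13 mRNAs (FPR1, TSL1, RTC3, SRB2, SSA4 and PNS1, 46.2%), against 22.1% of the 1534 mRNAs with at least 100 reads and 19.0% of all 5542. An HSE was present before 2 of the 13 (BTN2 and OPI10), against 2.09% of the 1534. In the lists themselves, 76.9% of the general stress genes held an STRE and 46.4% of the chaperones an HSE. No match in this window says only that these letters are not there.

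Stress mRNAs were already high in the control pool. SSA4 stood at 490 RPM in the 1 h pool and 350 in the control pool, against 14.3 to 17.9 in the Mex67-AA libraries. HSP12 stood at 1004 and 738 RPM, its control level 89.6-fold above the highest Mex67-AA library, and HSP104, the disaggregase, at 769 and 566 RPM, 7.36-fold above. The heat shock chaperones took 1.38% of the reads in the 1 h pool and 1.19% in the control pool, and the general stress genes 0.617% and 0.547%. In all, 24 of the 1534 mRNAs had a control level at least 5-fold above every Mex67-AA library, and 13 of them belong to these lists. The rest include STE2 and STE6, genes of a cells, RPL13A, the minor glyceraldehyde-3-phosphate dehydrogenase TDH1 and CYC7, an isoform of cytochrome c.

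The mRNAs far above the Mex67-AA level gained less tail than the others, and their median ratio to the control was higher. The 24 had a median gain of 1.74 As, 4 of them without gain (16.7%), and a median log2 ratio of 0.45, with 22 above 0. In 53 mRNAs at 2-fold to 5-fold above, the medians were 6.90 As and 0.16, with 4 without gain, and in the other 1457 mRNAs 9.26 As and -0.15, with 5 without gain (0.343%). The highest log2 ratio among the 24 was 0.67, and 9 of the 13 mRNAs without gain lay outside the 24. The exceptions among the 24 were the a-cell genes STE2 (54.1 As after 1 h, 41.4 As in the control) and STE6 (56.7 and 38.3 As) and the thiamine transporter THI7 (63.4 and 43.4 As). Without the 24, the chaperones had a median log2 ratio of 0.18 and the general stress genes 0.18. What sets the high control level was not tested. By the read totals of the study, the control pool is made up mostly of reads from one of its samples.

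**Figure D5:**
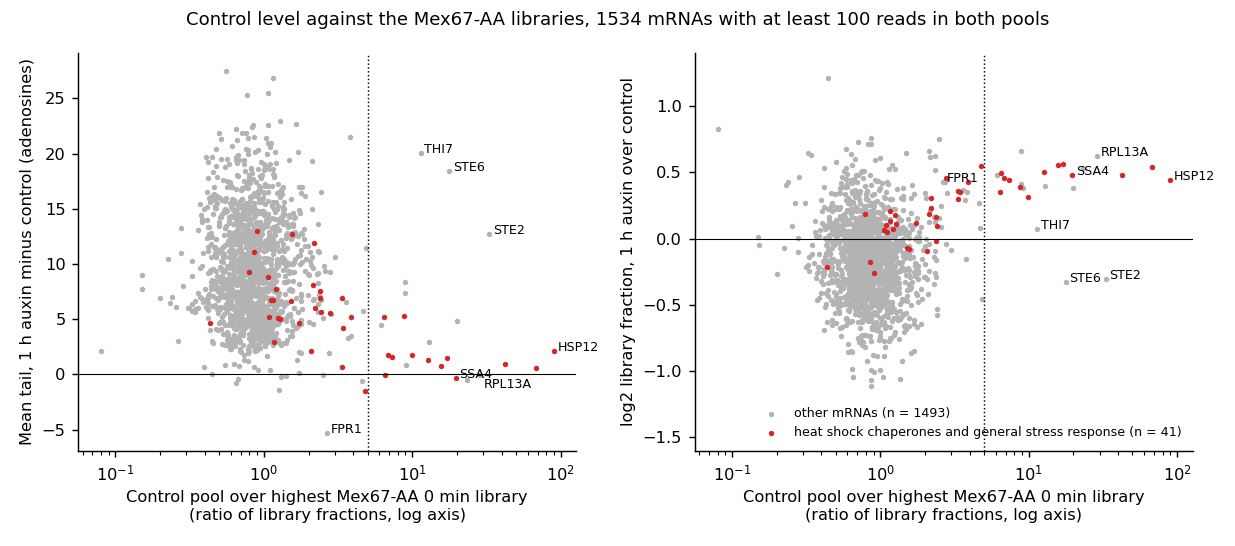
Tail gain in adenosines (left) and log2 ratio of library fractions (right), 1 h auxin against control, of 1534 mRNAs against their control level relative to the highest of the 3 Mex67-AA 0 min libraries (log axis). Red points are heat shock chaperone and general stress mRNAs, the dotted line marks 5-fold, and the 24 mRNAs to its right have a median gain of 1.74 As and a median log2 ratio of 0.45, with STE2, STE6 and THI7 apart from the others.

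FPR1 and RPL13A, both among the 13 mRNAs without gain, are recorded as altered in the strain. The strain list gives fpr1::LEU and a fusion of RPL13 to FKBP12 for the Pab1-AID strain, and fpr1::NAT and a like fusion for the Mex67-AA strain, and their levels differed between the experiments. RPL13A had 253 reads in the 1 h pool and 134 in the control pool but 1, 0 and 1 in the Mex67-AA libraries, while its paralogue RPL13B had 5932 and 5523 reads and a tail of 29.1 and 24.7 As. FPR1 stood at 176 and 130 RPM in the 1 h and control pools, against 33.0, 33.0 and 49.2 in the Mex67-AA libraries. MEX67, also tagged, was read 23 and 19 times. How reads from a tagged or disrupted locus align to these rows was not tested. These values and the mating-type markers do not match a shared strain background, and that of the Pab1-AID pools was not tested further.

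Transcripts outside the mRNAs gained less tail. Rows of rRNA, which reach a DRS library only with a tail, took 0.431% of reads in the 1 h pool and 0.309% in the control pool, with a median log2 ratio of 0.51 over 17 rows, and 9 of the 17 had no tail gain (median difference -0.11 As). The cryptic unstable transcripts (CUTs), substrates of the nuclear exosome, had a median log2 ratio of 0.33 over 25 and a median gain of 6.06 As over 68, with 18 without gain. Xrn1-sensitive transcripts (XUTs) had a median of -0.03 over 48 and a gain of 8.23 As over 147, with 28 without gain. Rows of the snRNA class gained 4.25 As over 29, with 9 without gain, and stable unannotated transcripts 6.77 As over 24, with 2 without gain. For mRNAs the median gain was 11.2 As, and 3.04% had no gain, or 7.77% of those under 30 reads.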

How the data were processed

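Members and gene lists were chosen with earlier results of these data known. The authors called bases with Guppy, aligned DRS reads with minimap2 (version 2.17) to a yeast transcriptome, filtered them with SAMtools (1.9; sacCer3 in the submitters' processing notes), and estimated tails with Nanopolish, keeping estimates that passed its quality control. The deposited counts are whole reads per transcript, not normalized, and the deposited score values are the mean, median, geometric mean and quantiles of a transcript's tails in adenosines. The authors pooled the samples of a condition into one column, so groups have no SD and no test. In the 4 tables used, 89 columns of values were used and 391 others were not. ENO2 was removed, as in the study, because some libraries held it as a synthetic spike-in from other work.

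A library fraction is the count over the pool's total without ENO2; log2 ratios have 0.5 reads added to each count, with a minimum of 30 reads in one pool. Ratios at or past 2-fold were called. The 95% intervals are exact (Clopper-Pearson) intervals of the 1 h share of both pools' reads, converted to a ratio; they cover counting error only. Tails needed 10 reads in both pools, and a difference at or below 0 As counted as no gain. Depth was 2114246 reads in the 1 h pool, 1603425 in the 2 h pool and 1733624 in the control pool. Half-lives came from all pairs of the times used within each of the 3 Mex67-AA replicates, without the last sample of replicate C. Increases were removed, missing counts were set to 0.01, and the control was set at the onset time that the study uses. Constants were averaged. These half-lives were computed anew and are not the study's own values. mRNAs are rows of the deposited class for open reading frames, matched to 1 R64 protein-coding gene for 5312 rows, 5310 of which overlapped it.

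Named genes are PAB1, the mRNAs the study shows for this strain, the 12 highest and 12 lowest ratios (at least 100 reads in one pool), the 10 largest and 15 smallest tail differences (at least 100 reads in both), members of the tail, deadenylase and decay lists with 100 reads, and the 2 highest and 2 lowest members of each other list; genes with fewer reads, and the genes of mating type and strain construction, were named after their values were seen. Alternatives covered the reads added, the denominator, the minimum, the fold, the tail summary and the half-life settings. Python 3.11.15 (pandas 2.3.3, NumPy 2.4.6, SciPy 1.17.1, Matplotlib 3.10.9) was used, and edgeR 4.0.16 in R 4.3.3 only for TMM factors. On simulated counts for this comparison (7389 transcripts), all 200 transcripts with 4-fold changes were recovered and 10 of 3698 unchanged ones were called. The changes were planted only in transcripts with at least 100 expected control reads, and the simulated counts held counting error only. The recovery therefore says nothing of 2-fold calls on thinly read transcripts or of spread between libraries.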

Additional observations from a re-analysis of the deposited data

Results flagged for a closer look

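ENO2, which no comparison uses, held 6.62% of all reads in the 1 h pool (95% counting interval 6.59% to 6.66%), against 3.02% in the control pool (3.00% to 3.05%), with mean tails of 54.1 As in the 1 h pool and 41.3 As in the control pool. It is listed here as a signal outside the main measurement that was above the control level. The study states that in some data sets this transcript came from a spike-in, so its share is no measure of the cells' own ENO2 mRNA.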

How the results depend on the processing

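No paired analysis was possible because each group is one pooled column, and for the same reason no replicate could be left out. The counts of 18 transcripts at least 2-fold higher and 95 lower became 35 and 27 with TMM factors, 37 and 25 with the median of ratios, 86 and 178 with at least 10 reads in one pool, 2 and 16 with at least 100, 650 and 621 with no minimum, 98 and 628 at 1.5-fold, and 1 and 0 where the counting interval had to lie past 2-fold. The share of calls that were higher was 15.9%, against 56.5% with TMM factors, 59.7% with the median of ratios, 32.6% with at least 10 reads and 51.1% with no minimum. The other denominators and added reads gave 17 or 18 higher and 93 to 128 lower, the most with ENO2 kept. The median tail gain of 11.2 As was 14.0 As for the median tail, 2.35 As for the 5th percentile and 5.91 As with weights by read number, and 9.12 to 13.5 As under the other settings. Of mRNAs without gain there were 141, and 50 of 3472 with at least 30 reads, 13 of 1534 with at least 100 and 321 of 5261 with at least 1 read. The median and the geometric mean gave 190 and 133. Chosen after seeing the data, tails of the Mex67-AA libraries as reference gave 119 of 4068, and leaving out the mRNAs far above the Mex67-AA level left 9 of 1510 with at least 100 reads. The difference in gain between the shortest-lived and longest-lived classes, 6.97 As, was 5.42 to 7.26 As with other half-life settings. Of 297 list medians recomputed, 294 moved by less than the list's largest difference between Mex67-AA libraries. The others were mRNA export with TMM factors (-0.22) and the median of ratios (-0.20) and the study's examples with the median of ratios (0.09). That limit was 0.08 for mRNA export and 0.19 for the study's examples, but 0.26 or more for every other list. A change of denominator moved all log2 ratios alike, by at most 0.20, and so could not pass the limit in those other lists. The count of 294 is therefore no measure of stability. Of 1099 values of named genes, 1006 stayed within their counting interval. Low read numbers limit the tails: the share without gain was 7.77% under 30 reads and 0.829% at 300 to 1000 reads.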
